A study of Homo sapiens with 2 samples.

Results

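ING5 peaks at CpG-poor promoters are the summits that lay close to gene starts with few CpG dinucleotides. A peak was counted when its summit lay within 1000 bp of the canonical transcription start site (TSS) of a protein-coding gene whose surrounding 1000 bp had a CpG observed/expected ratio below 0.6. The ratio compares the CpG dinucleotides present with the number that the C and G content would give by chance order, and starts at 0.6 or more are called CpG-rich here. Of 8608 peaks in the list, 8589 lay on chromosomes 1 to 22 and X, 5558 of these at a canonical start, and 265 at a CpG-poor one. They touched 253 genes, since 26 genes had more than 1 such peak and 16 peaks lay near more than 1 CpG-poor start.

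The data are 1 ChIP-seq library made with an ING5 antibody and 1 input DNA library, both from HepG2, an established human liver cancer cell line, without treatment. Sequencing gave 12416160 fragments for ING5 and 9915170 for the input, which served only as the control of the authors' peak caller. The antibody was a Proteintech product, and no antibody was used for the input. Nothing was replicated, so no difference between groups of peaks was tested. The 95% intervals given treat the peaks or genes of this 1 list as independent draws and leave out variation between libraries. Whether they overlap is description and no test. Positions are GRCh38, and CpG ratios were read in GRCh37 at the same gene's start. Hepatocyte markers, such as ALB, APOA1, TTR and SERPINA1, had no peak at any of 20 canonical starts, of which 19 were CpG-poor. Only 3.83% of all CpG-poor genes had a peak, and at that share so few starts would give less than 1. None of 13 CpG-poor blood cell markers and 12 CpG-poor fibroblast and endothelial markers had a peak either. Whether the empty hepatocyte list bears on the labelled cell type was not tested.

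Most human genes start in CpG islands, stretches that stay unmethylated and carry histone H3 trimethylated on lysine 4 when the gene is active. CpG-poor starts lack such an island, are often methylated where the gene is silent, and belong largely to genes used in few tissues. ING5 is a plant homeodomain protein that binds H3 methylated on lysine 4 and is a subunit of the MYST histone acetyltransferase complexes built on KAT7, KAT6A and KAT6B.

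Promoter sequences of 6 CpG-poor starts with a peak let the letters be compared with a CpG-rich start, that of the cell cycle inhibitor gene CDKN1B, which also had a peak. Each sequence is the 250 bases before the RefSeq start (GRCh38.p14), 5′ to 3′ on the gene's strand, with CG dinucleotides in capitals.
TNFRSF1A: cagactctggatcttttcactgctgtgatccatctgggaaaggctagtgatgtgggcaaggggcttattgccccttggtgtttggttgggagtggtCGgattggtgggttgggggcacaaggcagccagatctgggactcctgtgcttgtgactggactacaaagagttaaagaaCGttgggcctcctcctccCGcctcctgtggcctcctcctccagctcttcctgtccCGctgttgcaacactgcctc
BST2: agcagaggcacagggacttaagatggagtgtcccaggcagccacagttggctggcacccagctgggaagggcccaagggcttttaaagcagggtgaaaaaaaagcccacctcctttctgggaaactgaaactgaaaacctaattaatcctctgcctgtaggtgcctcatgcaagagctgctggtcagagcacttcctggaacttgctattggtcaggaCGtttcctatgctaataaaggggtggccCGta
C4BPB: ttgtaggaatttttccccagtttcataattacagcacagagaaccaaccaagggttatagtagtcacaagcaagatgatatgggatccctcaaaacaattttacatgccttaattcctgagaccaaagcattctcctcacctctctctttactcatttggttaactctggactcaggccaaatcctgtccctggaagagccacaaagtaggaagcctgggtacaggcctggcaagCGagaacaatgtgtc
SFN: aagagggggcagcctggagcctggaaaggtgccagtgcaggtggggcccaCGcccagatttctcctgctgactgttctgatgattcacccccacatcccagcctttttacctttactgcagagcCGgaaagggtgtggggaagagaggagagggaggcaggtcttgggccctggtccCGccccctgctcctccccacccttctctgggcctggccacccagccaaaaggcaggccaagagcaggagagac
MUC1: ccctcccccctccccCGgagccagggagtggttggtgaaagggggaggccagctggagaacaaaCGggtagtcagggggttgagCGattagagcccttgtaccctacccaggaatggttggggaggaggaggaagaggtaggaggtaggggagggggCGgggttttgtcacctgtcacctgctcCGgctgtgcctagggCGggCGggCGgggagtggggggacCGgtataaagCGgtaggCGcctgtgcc
ISG15: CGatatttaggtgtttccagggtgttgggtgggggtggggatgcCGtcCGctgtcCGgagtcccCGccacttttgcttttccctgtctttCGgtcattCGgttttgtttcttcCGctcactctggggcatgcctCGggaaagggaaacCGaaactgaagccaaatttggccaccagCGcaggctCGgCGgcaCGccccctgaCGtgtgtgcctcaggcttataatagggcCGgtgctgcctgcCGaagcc
CDKN1B: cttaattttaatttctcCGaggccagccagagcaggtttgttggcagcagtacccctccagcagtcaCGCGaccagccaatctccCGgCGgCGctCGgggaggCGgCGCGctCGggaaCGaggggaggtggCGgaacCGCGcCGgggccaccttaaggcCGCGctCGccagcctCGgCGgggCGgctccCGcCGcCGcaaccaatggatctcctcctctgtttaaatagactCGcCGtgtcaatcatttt
The stretches lie at chr12:6342077-6342326 (minus strand) for TNFRSF1A, chr19:17405631-17405880 (minus) for BST2, chr1:207088610-207088859 (plus) for C4BPB, chr1:26862899-26863148 (plus) for SFN, chr1:155192916-155193165 (minus) for MUC1, chr1:1013247-1013496 (plus) for ISG15 and chr12:12717118-12717367 (plus) for CDKN1B. In these windows C4BPB had 1 CpG, BST2 had 2, SFN 3, TNFRSF1A 4, MUC1 11 and ISG15 17, against 27 at CDKN1B. Over 1000 bp the ratio was 0.108 at C4BPB, 0.248 at BST2, 0.276 at TNFRSF1A, 0.272 at MUC1, 0.422 at SFN and 0.428 at ISG15, against 0.930 at CDKN1B. MUC1 and ISG15 held more CpGs just before the start than the other 4, while staying below the limit over the wider window.

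CpG-poor starts seldom had an ING5 peak. A peak was found at 253 of 6612 genes with a CpG-poor canonical start (3.83%, interval 3.38 to 4.32), beside 5267 of 13207 with a CpG-rich one (39.9%, 39.0 to 40.7) and 27.9% of all 19819 genes. The share was higher from class to class up to a ratio of 1.0. It was 0 of 377 below 0.1, which allows up to 0.974%, then 0.585% of 1710 genes from 0.1 to 0.2, 1.93% of 1758 from 0.2 to 0.3 and 2.26% of 1017 from 0.3 to 0.4. It was 6.12% of 686 genes from 0.4 to 0.5, 13.5% of 1064 from 0.5 to 0.6, 23.9% of 2367 from 0.6 to 0.7 and 52.1% of 2052 from 0.9 to 1.0. Intervals of neighbouring classes overlapped for the 2 lowest classes, for those from 0.2 to 0.4 and for the 2 highest, and nowhere else. Many members stood near the limit. Their median ratio was 0.519, with quartiles of 0.371 and 0.576, and 72 of 265 lay below 0.4.

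**Figure D1:**
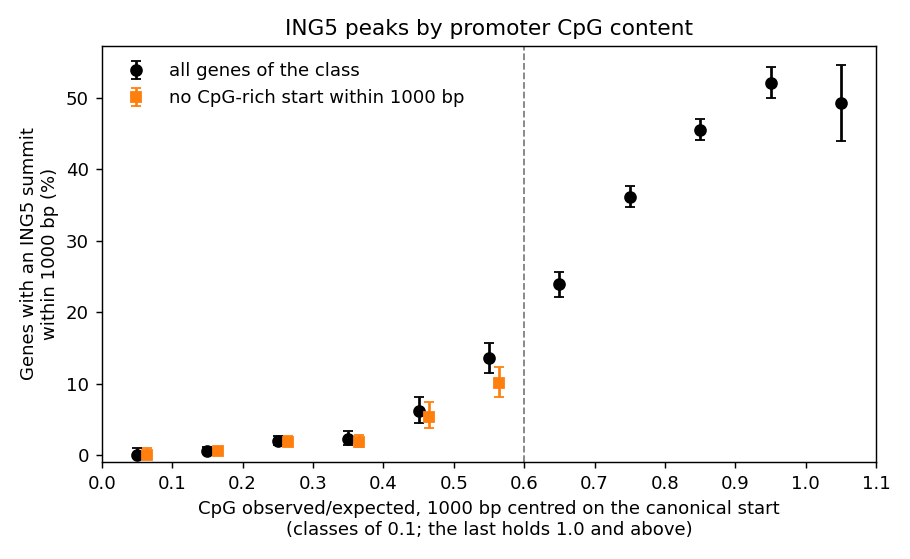
Share of protein-coding genes with an ING5 summit within 1000 bp of the canonical start (y axis, %), by class of CpG observed/expected (x axis), with exact binomial 95% intervals; the dashed line marks 0.6. Black points are all genes of a class and orange squares those without a CpG-rich start within 1000 bp. The share is 0 below 0.1, 13.5% just under the limit and 52.1% from 0.9 to 1.0.

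Members at the limit are given beside the nearest peaks outside it. DDA1, PLSCR1 and the unnamed gene ENSG00000272896, at ratios of 0.599, 0.598 and 0.598, had 9, 15 and 14 fragments at the summit. RGS19 and LIMD1, outside at 0.601 each, had 11 fragments each. At the edge of the distance window, SCNN1A, PSCA and ROM1 were inside, at 999, 977 and −974 bp from the start. RABGGTB, THBS3 and SERPINB5 were outside, at 1003, −1028 and 1033 bp, where negative values lie upstream.

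CpG-poor starts with a peak were richer in G and C than those without. Their median GC content over 1000 bp was 60.0% (59.1 to 60.9) against 51.0% (50.7 to 51.3) at the 6359 CpG-poor starts without a peak, and they held a median of 43 CpGs against 16. A stretch of 200 bp with a ratio of at least 0.6 and a GC content of at least 50% lay within 1000 bp of the start at 223 of the 253 genes (88.1%, 83.5 to 91.9), beside 40.8% of those without a peak. Many of these starts had a short CpG-richer stretch nearby. The ratio over 1000 bp also differed, with a median of 0.521 with a peak and 0.261 without. A short stretch at 0.6 or more is likelier where the wider ratio is near 0.6, and starts of equal ratio were not compared. GC content, CpG number and the ratio moved together with the presence of a peak, and their separate parts were not tested.

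Peaks at CpG-poor starts were of low height. The authors' pileup, the number of fragments over the summit, ran from 7 to 33 with a median of 11 (11 to 12), and was 12 (12 to 13) at the 5293 other canonical-promoter peaks. The authors' fold enrichment, the pileup over the local background with 1 added to each, had a median of 5.94 (5.84 to 6.47) with quartiles of 5.40 and 7.10, beside 6.95 (6.74 to 7.01) at the others. The median width was 331 bp (300 to 360), beside 374 bp (366 to 383). Only 11 peaks were wider than 1000 bp, led by those of TRIP6 (1922 bp), KAZALD1 (1714 bp) and GLTPD2 (1440 bp). Peaks of the same pileup over the genome-wide background of 0.853 fragments have the same fold enrichment, so many values below repeat.

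**Figure D2:**
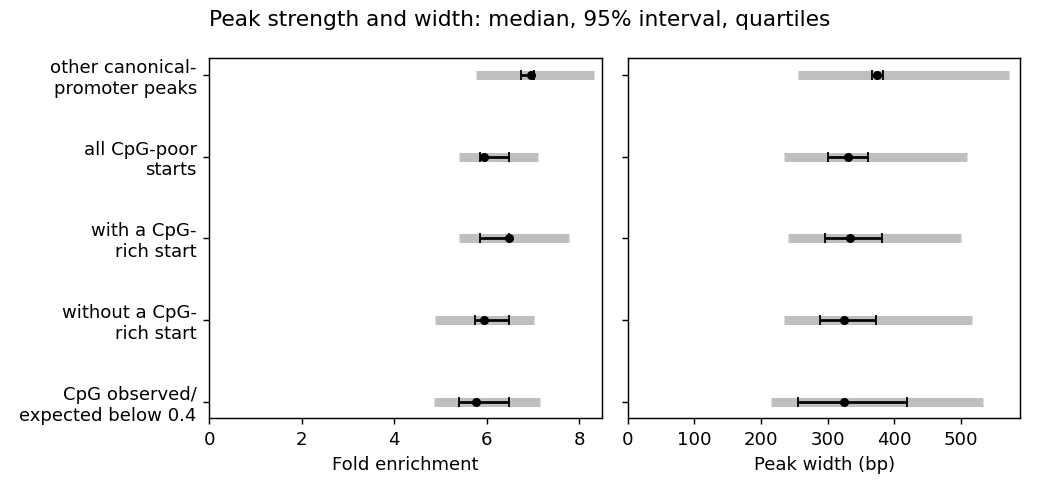
Median (points), its 95% interval (whiskers) and quartiles (grey bars) of the authors' fold enrichment (left) and of peak width in bp (right), for other canonical-promoter peaks and for peaks at CpG-poor starts, whole and by subset. The medians at CpG-poor starts are 5.94-fold and 331 bp, beside 6.95-fold and 374 bp at the other peaks.

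Height was alike in the members lowest and highest in CpG. The 72 peaks at ratios below 0.4 had a median of 11 fragments and 5.77-fold enrichment (5.40 to 6.47), and the 193 from 0.4 to 0.6 had 11 fragments and 6.08-fold (5.94 to 6.47). These intervals overlapped. TNFRSF1A, at a ratio of 0.276, had 25 fragments and ranked 237 among all chromosomal peaks by −log10 p, behind only ZBTB7B and HEXIM2 within the group.

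**Figure D3:**
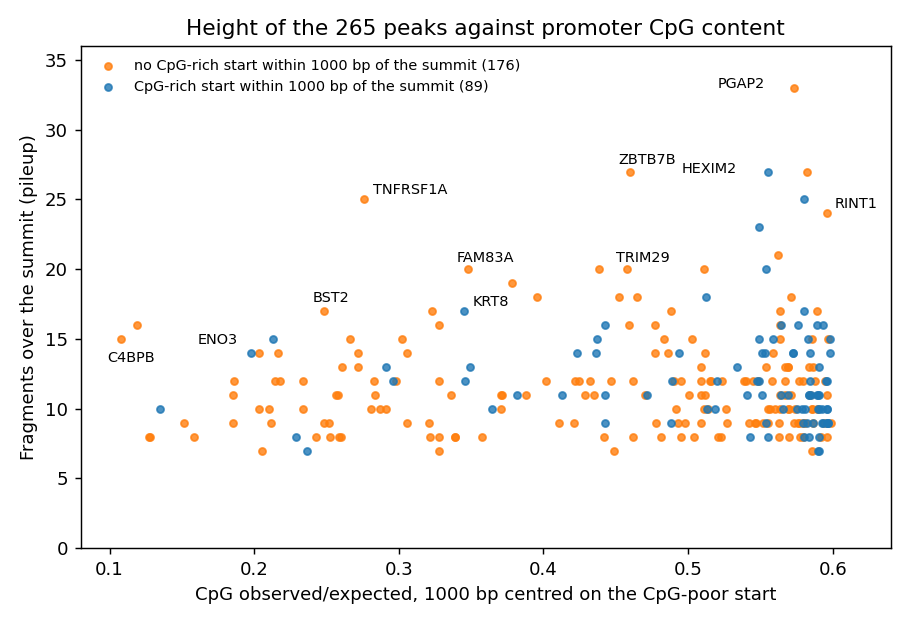
Fragments over the summit (y axis) against the CpG observed/expected ratio of the CpG-poor start (x axis) for each of the 265 peaks, orange without and blue with a CpG-rich start within 1000 bp of the summit. TNFRSF1A has 25 fragments at 0.276 and PGAP2 33 at 0.573, C4BPB has 15 at the lowest ratio, 0.108, and many peaks crowd just below 0.6.

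Further starts near the summit were counted in members and in the other canonical-promoter peaks. Within 1000 bp of it, 179 of 265 peaks (67.5%, 61.5 to 73.1) had a further annotated start, either of another gene or at least 100 bp from the canonical start of the same gene. A noncanonical start of the same gene was near in 132 peaks (49.8%), a start of another gene in 99 (37.4%), a canonical start of another protein-coding gene in 54 (20.4%) and a noncoding gene's start in 36 (13.6%). At 89 peaks (33.6%, 27.9 to 39.6) at least 1 of these further starts was CpG-rich, in 56 of them that of another gene. At the other canonical-promoter peaks these shares were 76.9% for any further start, 58.8% for the same gene, 44.5% for another gene, 14.3% for another canonical protein-coding start, 25.4% for a noncoding gene and 73.5% for a CpG-rich start. All of these shares but that for another canonical protein-coding start were above those of the members. That exception follows from the rule, since a peak with any CpG-poor canonical start in reach is a member. Further canonical starts at the other peaks were therefore all CpG-rich. Counting only CpG-rich canonical starts of other genes, the share was 14.7% in members and 14.3% in the others. The share with any CpG-rich start is also bound up with the rule. A further start close by shares part of the canonical start's 1000 bp, and so part of its CpG ratio. The 33.6% and 73.5% are therefore no independent contrast, and starts with separate windows were not compared. The other 176 members had no CpG-rich start within reach, and 86 had no further start of any kind.

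CpG-poor genes with a CpG-rich neighbour start had a peak more often than those without. Of 6612 CpG-poor genes, 346 had a CpG-rich start within 1000 bp of their own, and 77 of these had a peak (22.3%, 18.0 to 27.0). Of the 6266 without such a start, 176 had a peak (2.81%, 2.41 to 3.25). The 2 intervals did not overlap. Genes with a CpG-rich neighbour also lay closer to the limit, since 252 of the 346 were in the class from 0.5 to 0.6. In that class 144 of 1064 genes had a peak (13.5%), 82 of them among the 812 without such a neighbour (10.1%, 8.11 to 12.4). The remaining peaks of the class were at its 252 genes with such a neighbour, whose own share was therefore above 13.5%.

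The summit lay downstream of the CpG-poor start at 208 of 265 peaks (78.5%, 73.0 to 83.3), beside 86.3% (85.4 to 87.2) of the other canonical-promoter peaks. The share differed with the presence of a CpG-rich start. Without a CpG-rich start in reach, 157 of 176 summits lay downstream (89.2%, 83.7 to 93.4), and with such a start 51 of 89 (57.3%, 46.4 to 67.7). Where the CpG-rich start belonged to another gene, 26 of 56 did (46.4%, 33.0 to 60.3), and where it was of the same gene only, 25 of 33 did (75.8%, 57.7 to 88.9). Members below a ratio of 0.4 were downstream in 53 of 72 (73.6%, 61.9 to 83.3), and those of them without a CpG-rich start in 48 of 60 (67.7% to 89.2%). Members from 0.4 to 0.6 were downstream in 155 of 193 (80.3%, 74.0 to 85.7), an interval overlapping that of members below 0.4. Peaks without a start of another gene near them were downstream in 87.3% (81.3 to 92.0), beside 89.0% (87.8 to 90.1) of other peaks chosen alike. With CpG read over 2000 bp, the difference between members and other peaks turned from −7.83 to 3.30 percentage points. Without a CpG-rich start, 29 summits fell 300 to 400 bp downstream and 28 fell 100 to 200 bp downstream, the fullest bins of 100 bp, and the median distance was 347.5 bp (311 to 403).

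**Figure D4:**
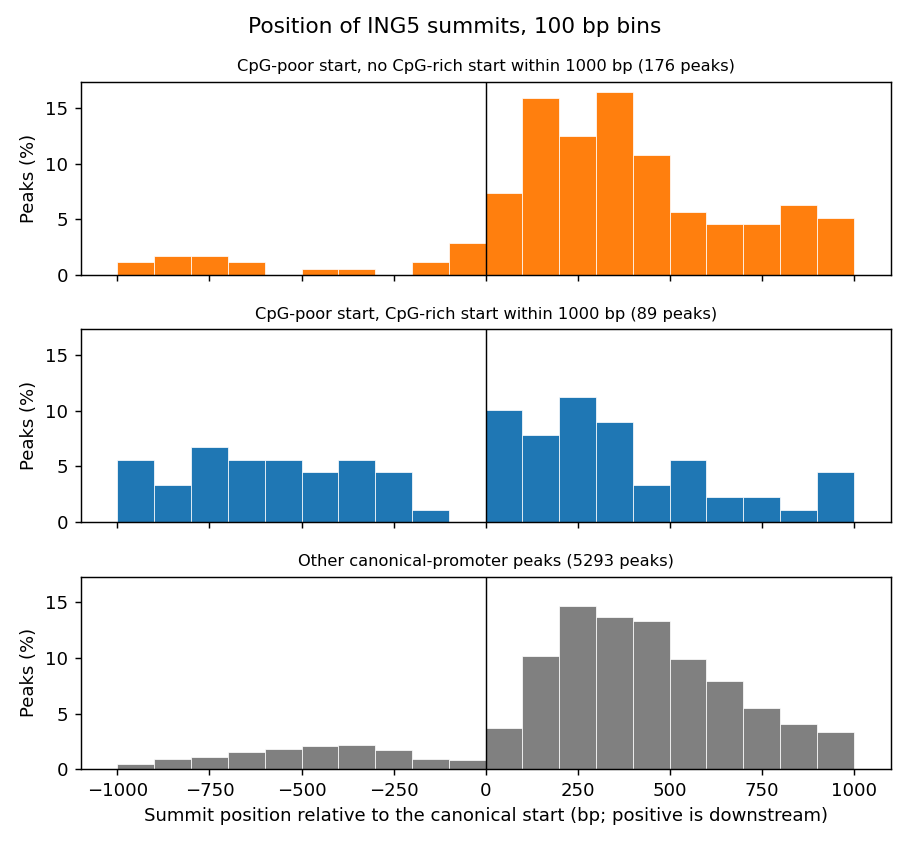
Summit position relative to the canonical start (x axis, bp, positive is downstream) as a share of peaks in 100 bp bins (y axis, %), for CpG-poor starts without a CpG-rich start within 1000 bp of the summit (top), with such a start (middle) and other canonical-promoter peaks (bottom). The top and bottom panels lie mainly downstream, 89.2% and 86.3%, and the middle panel is spread over both sides, with 57.3% downstream.

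Most of these 89 summits were nearer to a CpG-rich start than to the CpG-poor one. The nearest CpG-rich start lay a median of 284 bp (230 to 362) from the summit and was closer than the CpG-poor start in 57 of 89 peaks (53.2% to 73.9%). The summit was downstream of the CpG-rich start in 54 (60.7%, 49.7 to 70.9). The nearest of any annotated CpG-rich starts was set against a canonical CpG-poor start alone, which favours the former, and no baseline was counted. Among the 208 peaks downstream of a CpG-poor start, the ratio was higher in the 1000 bp downstream than in the 1000 bp upstream in 134 (64.4%, 57.5 to 70.9), beside 57.2% (56.0 to 58.4) of all 6612 CpG-poor genes. Among the 57 peaks upstream, it was higher upstream in 47 (82.5%, 70.1 to 91.3). At the other canonical-promoter peaks these shares were 61.5% (60.1 to 62.9) and 49.6% (45.9 to 53.3). The intervals for upstream peaks did not overlap, but for the 19 upstream members without a CpG-rich start the share was 14 of 19 (73.7%, 48.8 to 90.9), whose interval overlapped that of the others.

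The summits fell mostly inside the gene. Of 265, 116 lay in the first intron of the canonical transcript (43.8%), 63 in the first exon (23.8%), 29 past the first intron (10.9%), 1 of them beyond the end of the transcript, and 57 upstream (21.5%). At the other peaks the first intron held 56.1% and the first exon 23.7%.

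The strongest peaks without a CpG-rich start in reach lay at genes of several kinds. ZBTB7B, a zinc finger transcription factor gene, had 27 fragments and 15.1-fold enrichment with its summit 522 bp downstream, in the first intron. TNFRSF1A, the gene of the main tumour necrosis factor receptor, had 25 fragments, 14.0-fold enrichment and a width of 1406 bp, with its summit 307 bp downstream in the first intron. RINT1, a vesicle transport gene at a ratio of 0.596, had 24 fragments and 13.1-fold, 100 bp downstream in the first exon. Each of these 3 peaks stood above the upper quartile of the group, 14 fragments. TRIM29 and FAM83A, both known from epithelial cells and tumours, followed with 20 fragments and 11.3-fold each, 723 and 654 bp downstream in their first exons. GLTPD2 and C19orf33 had 18 fragments and 10.3-fold each.

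The next in rank included GALM, an enzyme gene of galactose use, and the zinc finger gene ZKSCAN4, with 20 fragments each over raised backgrounds of 1.25 and 1.24 and 9.32-fold and 9.39-fold enrichment. BST2, which encodes the antiviral protein tetherin, and TINAGL1 had 17 fragments and 9.71-fold each. BST2 had a second, lower peak 831 bp upstream with 9 fragments. NNMT, an enzyme gene of nicotinamide methylation, had 15 fragments and 8.63-fold, 181 bp downstream in its first exon, at a GC content of 44.4%. NQO1, a gene of the oxidative stress response, had peaks on both sides, 844 bp upstream with 16 fragments and 876 bp downstream with 14.

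At the CpG-poorest starts the peaks were low or stood over raised background. The 5 lowest ratios belonged to C4BPB, OR51E1, CBY3, LCN2 and TMEM79, at 0.108, 0.119, 0.127, 0.128 and 0.135. C4BPB, a complement regulator gene of liver, had 15 fragments over a background of 1.78, which made 5.76-fold. OR51E1, an olfactory receptor gene, had 16 fragments over 2.98 (4.27-fold). CBY3 and LCN2, the latter encoding the secreted protein lipocalin 2, had 8 fragments each, 85 and 43 bp upstream. TMEM79 had 10, with a CpG-rich start of its own 642 bp from the summit and one of another gene also in reach.

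Where a CpG-rich start was near, several strong peaks lay closer to it than to the CpG-poor start. The peak of HEXIM2, an inhibitor of the elongation kinase P-TEFb, had 27 fragments and 15.1-fold enrichment. Its summit lay 909 bp upstream of the CpG-poor canonical start and 112 bp upstream of a noncanonical HEXIM2 start with a ratio of 0.746. LRRC49 had 23 fragments 700 bp upstream of its start and 284 bp downstream of that of THAP10, on the opposite strand, with a ratio of 0.706. The gene ENSG00000285655 had 17 fragments and 9.71-fold, 893 bp upstream of its start and 278 bp downstream of that of RRS1, a ribosome assembly gene. The peak of ARL3, with 16 fragments, lay 430 bp upstream of it and 168 bp downstream of the start of the mitochondrial carrier gene SFXN2. The stronger peak of AP3M1, with 15 fragments, lay 564 bp upstream and 152 bp downstream of ADK, the adenosine kinase gene, and a further one with 12 fragments lay 88 bp downstream of AP3M1 itself. For ENO3, the muscle enolase gene with a ratio of 0.198, the summit was 698 bp upstream of the canonical start and 231 bp downstream of a noncanonical one at 0.770. Other peaks went the other way. KAZALD1 had 18 fragments 236 bp upstream of its canonical start and 748 bp from a CpG-rich noncoding start. KRT8 had 17 fragments 531 bp downstream of its canonical start and 897 bp upstream of a CpG-rich noncanonical start.

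Local background was raised above the genome-wide value, by more than 0.001 fragments, at 91 of 265 peaks (34.3%, 28.6 to 40.4), beside 39.4% of the others. The most significant of these was that of RINT1, over a background of 0.905, then those of SOX4 and LRRC49. SOX4, a transcription factor gene, had 25 fragments over 1.88 (9.03-fold), with its summit 957 bp downstream and near a CpG-rich noncoding start on the opposite strand, and LRRC49 had 23 over 1.49 (9.64-fold). The tallest peak of the group also stood on raised background. PGAP2, a gene of GPI anchor remodelling on chromosome 11, had 33 fragments over 5.03, which made 5.64-fold, and TRIM68 on the same chromosome had 27 over 3.08 (6.86-fold). These were low enrichments for tall peaks, since TNFRSF1A reached 14.0-fold with 25 fragments.

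Members stood close together in a few places. With gaps of at most 50 kb, 31 peaks formed 13 runs of more than 1 gene. How often other canonical-promoter peaks or CpG-poor genes lie so close was not counted. Some runs were starts right beside each other, the shortest spanning 0.533 kb at CYSRT1 and RNF224. The run with the most peaks spanned 43.2 kb on chromosome 12, with 5 peaks at TNFRSF1A, SCNN1A, a sodium channel subunit gene, and LTBR, the lymphotoxin receptor gene. The summits had 25 fragments at TNFRSF1A, 12 at SCNN1A and 16, 15 and 10 at LTBR. A run of 3 on chromosome 12 joined PYM1, CDK2 and RAB5B, with 12 to 16 fragments. TOR4A also had 3 peaks of its own, with 16, 12 and 7 fragments. Chromosomes 13 and 21 had none, at 75 and 91 CpG-poor genes, and chromosome 4 had 1 at 236. The share of CpG-poor genes with a peak was 1.05% on chromosome X and highest on chromosome 15, at 8.44%, beside 3.83% over all. Differences between chromosomes were not tested.

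Many gene lists held so few CpG-poor starts that a share like that of all CpG-poor genes would give less than 1 peak. Beside 3.83% of all CpG-poor genes, a peak was found at none of the 19 CpG-poor hepatocyte markers, 13 blood cell markers, 12 fibroblast and endothelial markers, 9 liver transcription factors, 3 replication-dependent histone genes and 14 heat shock and DNAJ genes. It was found at 1 of 399 olfactory receptor genes, 2 of 145 keratin and keratin-associated genes (KRT8 with 9.71-fold and KRT80 with 5.59-fold), 3 of 123 solute carrier genes and 6 of 95 zinc finger (ZNF) genes. SLC6A19, an amino acid transporter gene, led the solute carriers with 7.83-fold, followed by SLC12A8 with 6.47 and SLC38A7 with 5.94. Among the zinc fingers, ZNF436 had 6.47-fold, ZNF680 5.91 and ZNF493 5.33. Lists of widely used genes had few CpG-poor starts at all. The 22 immediate early genes had none and the 87 cytosolic ribosomal protein genes 1, without a peak. Peaks stood at 3 of 8 CpG-poor mitochondrial ribosomal and complex I genes (MRPL24, MRPL55 and MRPL30) and at 3 of 8 CpG-poor proteasome genes. Of the latter PSMA6, a core subunit gene, had 15 fragments and 8.63-fold, PSMB10, an immunoproteasome subunit gene, 14 and 8.09-fold, and PSME2, an activator subunit gene, 11 and 6.47-fold.

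After the members had been seen, lists for 2 themes among their names were counted, and they are no independent evidence. Of 44 genes of epithelial surface and adhesion, 19 had a CpG-poor start and 9 of these a peak. They were TRIM29, KRT8, the plakophilin gene PKP3 with 16 fragments, PLEC with 15, the mucin gene MUC1 with 13, SCNN1A, COL7A1 and SFN, which encodes the epithelial protein 14-3-3 sigma, with 12 each, and EVPL with 8. Their summits ranged from 387 bp downstream at PLEC to 999 bp at SCNN1A. Of 40 interferon-induced and antigen-processing genes, 27 had a CpG-poor start and 6 a peak, namely BST2, PSMB10, IFI30, IFITM3, PML and ISG15. The last 4 had 12, 12, 12 and 11 fragments. The strongest summit of each gene lay 280 to 584 bp downstream, and the second of BST2 upstream. Genes for these lists were chosen partly because they were members, so neither the counts of 9 of 19 and 6 of 27 nor the positions can be read against the 3.83% or the summits of all CpG-poor genes.

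Short promoter motifs were searched in 300 bp of RefSeq promoter, from 250 bases before to 50 after the start, for 14540 genes whose RefSeq start lay within 100 bp of the canonical one, 190 of them members. The TATA box, TATAAA on the sense strand from −40 to −15, was found in 2.11% of members (0.577 to 5.30), 8.88% of CpG-poor promoters without a peak (8.05 to 9.77), 1.65% of CpG-rich promoters with a peak and 3.98% of all. MUC1 was among the 4 members that held it. The GC box GGGCGG, on either strand, was found in 52.1% of members (44.8 to 59.4), 1078 of 4311 CpG-poor promoters without a peak (23.7 to 26.3%), 79.7% of CpG-rich ones with a peak and 62.8% of all. In the same order of sets, the ETS motif CCGGAAGT, on either strand, was found in 8.42% (4.89 to 13.3), 1.02% (0.743 to 1.37), 11.7% and 6.66%. CCAAT, on either strand, was found in 36.3% (29.5 to 43.6), 38.8% (37.3 to 40.3), 37.1% and 5378 of 14540 promoters. Between CpG-poor promoters with and without a peak, the intervals overlapped for CCAAT and not for the other motifs. Among the 124 members without a CpG-rich start at the peak, CCAAT was found in 26.6% (19.1 to 35.3), an interval below that without a peak. The GC box and the ETS motif contain a CpG themselves, and promoters with a peak held more CpGs, with a median of 12 in the 250 bases before the start against 4.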

How the data were processed

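ING5 ChIP DNA from 1 HepG2 library was compared with 1 input library by the authors, whose peak caller was MACS2 (2.1.1.20160309), run on read pairs with a p threshold of 1e-05, per the file headers. Per the submitters' processing notes, deepTools, Bowtie2 and fastp 0.19.6 were used. The deposited pileup is a coverage signal, and the deposited fold enrichment a linear ratio to local background. The deposited −log10 p ranked the peaks, and the deposited −log10 q served 1 alternative although the headers call q not calculated.

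The labels name GRCh37, but the list uses GRCh38 sequence names, so starts came from the GRCh38 exon positions recorded in GENCODE 44. CpG was computed in GRCh37 sequence at the same gene's start. Further starts of any gene class within 1000 bp of a summit counted, those of the same gene from 100 bp away. For peaks near several CpG-poor starts, the nearest was used. Assignment was checked on simulated summits. Shares have exact Clopper-Pearson intervals and medians order-statistic intervals, which treat peaks or genes as independent draws and leave out variation between libraries. Members, gene lists and naming rules were chosen with earlier results of these data known. Named were the 20 most significant members, the 5 lowest in CpG, the 3 widest, the strongest without further CpG-rich starts, up to 3 per list, the 3 with raised background and those at the limits; other genes were named after their values were seen. A gene just outside the CpG limit is not reported here. Another 19 peaks lay off these chromosomes and were left out. The closing section gives 12 other settings and 1 chosen after seeing the data. Analyses used Python 3.11.15, pandas 2.3.3 and SciPy 1.17.1.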

Additional observations from a re-analysis of the deposited data

How the results depend on the processing

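The number of peaks and the shares depend on how a CpG-poor start is defined, and with no replicate no library could be left out. No paired analysis was possible because each group has 1 library. The median width stayed below that of other canonical-promoter peaks under all 13 alternatives, as did the median fold enrichment, and the share of CpG-poor genes with a peak ran from 0.998% to 13.6%.

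In place of 265 peaks at 3.83% of CpG-poor genes, a limit of 0.5 gave 117 (1.96%), 0.75 gave 1459 (13.6%), and 0.4, added after seeing the data, 72 (1.38%). CpG over 2000 bp gave 736 (8.71%), and over 500 bp the share was 3.34%. Summits within 500 and 200 bp gave 171 (2.68%) and 65 (0.998%), the more significant part of the list 117 (1.77%), genome-wide background alone 174 (2.54%), −log10 q of 5 or more 170 (2.57%), and no CpG-rich start in reach 176 (2.54%).

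The share downstream, 78.5%, was 84.6% at 0.75, 89.0% over 2000 bp, 72.6% over 500 bp, 86.5% within 500 bp, 87.7% within 200 bp, 84.0% with the nearest canonical start and 89.2% without CpG-rich starts. Its difference from other peaks, −7.83 percentage points, turned to 3.30 over 2000 bp. It was 2.88 where peaks with a CpG-rich start were left out of the members but kept among the other peaks, so unlike sets were compared. It was −12.8 at 0.4 (share 73.6%), −1.05 at 0.75, −13.8 over 500 bp, −1.25 and −1.09 within 500 and 200 bp and −2.32 with the nearest start, and the cause was not tested.

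The median distance, 373 bp, was 462 bp at 0.5, 479 bp at 0.4, 329 and 422 bp over 2000 and 500 bp, 265 and 132 bp within 500 and 200 bp, 430 bp in the more significant part and 421.5 bp at genome-wide background. Within 200 bp the median pileup was 10, fold 5.62 and width 277 bp. In the more significant part they were 14, 7.55 and 421 bp. With −log10 q of 5 or more, fold was 7.01 and width 406 bp. At 0.4 fold was 5.77, with a difference of −1.12 from other peaks.

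The share with a further start was 57.3% at 0.5, 74.7% at 0.75, 52.8% at 0.4, 58.5% within 200 bp and 51.1% without CpG-rich starts. That with a CpG-rich start was 23.1% at 0.5, 26.3% at 0.75, 19.4% at 0.4, 14.0% over 2000 bp, 46.6% over 500 bp, 26.2% within 200 bp and 27.9% with the nearest start. Summits of 7 fragments were the lowest called, so weaker occupancy was not detectable at this depth.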
